A study of Mus musculus with 6 samples.

Results

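The genes described here encode the enzymes that cut the extracellular matrix and the proteins that hold those enzymes in check: the matrix metalloproteinases (MMPs), the ADAMTS proteases, the ADAMTS-like proteins, the tissue inhibitors of metalloproteinases (TIMPs) and the membrane-anchored inhibitor Reck. They were taken by symbol, as every row of the deposited table annotated to exactly 1 symbol made of Mmp, Timp, Adamts or Adamtsl and a number, or to Reck, with Mmp7 left out. This gave 72 rows for 47 genes, of 19938 genes measured in all, and the brightest row over the 6 arrays stood for each gene. The 47 genes are 19 MMPs, 18 ADAMTS proteases, 5 ADAMTS-like genes and 5 inhibitors.

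Whole small intestine of mouse embryos at E18.5, shortly before birth, was compared between an E-cadherin conditional knockout (cKO, 3 arrays) and controls labelled wild type (3 arrays), on Affymetrix Mouse Gene 1.0 arrays. E-cadherin, the product of Cdh1, holds epithelial cells together at adherens junctions. What drives the recombination and which exons it removes are not stated in the labels. Nor do the labels say that each array held a separate embryo, so the p-values reflect the spread among these 6 samples, part of which may be technical. Values are log2 expression as deposited, and differences are cKO minus control on that scale.

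Cdh1 read 9.70, 8.38 and 8.91 in cKO 1, 2 and 3, against 9.86, 9.82 and 10.15 in controls 1, 2 and 3, a difference of -0.95 that did not pass the threshold (limma adjusted p = 0.088), with cKO 1 nearest to the controls. The epithelial markers Epcam, Cdh17 and Vil1 read at least 10.80 on every array of both groups. Genes for smell, pheromone and taste receptors, 1215 in all, served as a guide to background: the level of each array was their 95th percentile, and ranged from 5.79 to 6.26 on cKO arrays and from 6.20 to 6.36 on control arrays. On cKO 2 these receptor genes lay 0.37 below their control mean (median), against shifts of -0.06 to 0.09 on the other arrays.

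MMPs are zinc-dependent enzymes made as inactive proforms, and are grouped by what they cut or how they sit on the cell: collagenases, gelatinases, stromelysins and membrane-type enzymes. ADAMTS proteases carry thrombospondin repeats that bind matrix and cleave proteoglycans, procollagens or other matrix proteins, whereas ADAMTS-like proteins lack the protease domain. TIMPs bind the active site of these enzymes, and Reck restrains several MMPs at the cell surface. In the intestine MMPs are made mostly by mesenchymal and myeloid cells, and some are made by epithelium at wound edges.

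In cKO intestine 16 of the 47 genes changed, 15 of them higher and 1 lower (limma, adjusted p under 0.05 over all genes). Over all genes tested 14.2% were called, 6.81% higher and 7.36% lower, against 31.9% and 2.13% of these 47. The genes that rose include Mmp10, Mmp9, Mmp19 and Mmp13 together with the inhibitors Timp2, Timp3 and Reck. The median difference was 0.16 over the 47 genes and -0.09 over all genes. It was 0.05 and -0.13 without cKO 1, 0.26 and 0.01 without cKO 2, and 0.26 over the 47 genes with each of 3 rescalings of the arrays, which put the median of all genes between -0.01 and 0.01. For all 16 the groups did not overlap, and 5 rose by a measured 2-fold or more, as did 1.80% of all genes. Without cKO 3 the count of 16 was 10 (7.61% of all genes), and without control 2 it was 9 (6.15%). The groups lay apart for 25 of the 47 genes, 21 with cKO above and 4 with cKO below, where 16.0% and 19.3% of all genes did so.

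**Figure D1:**
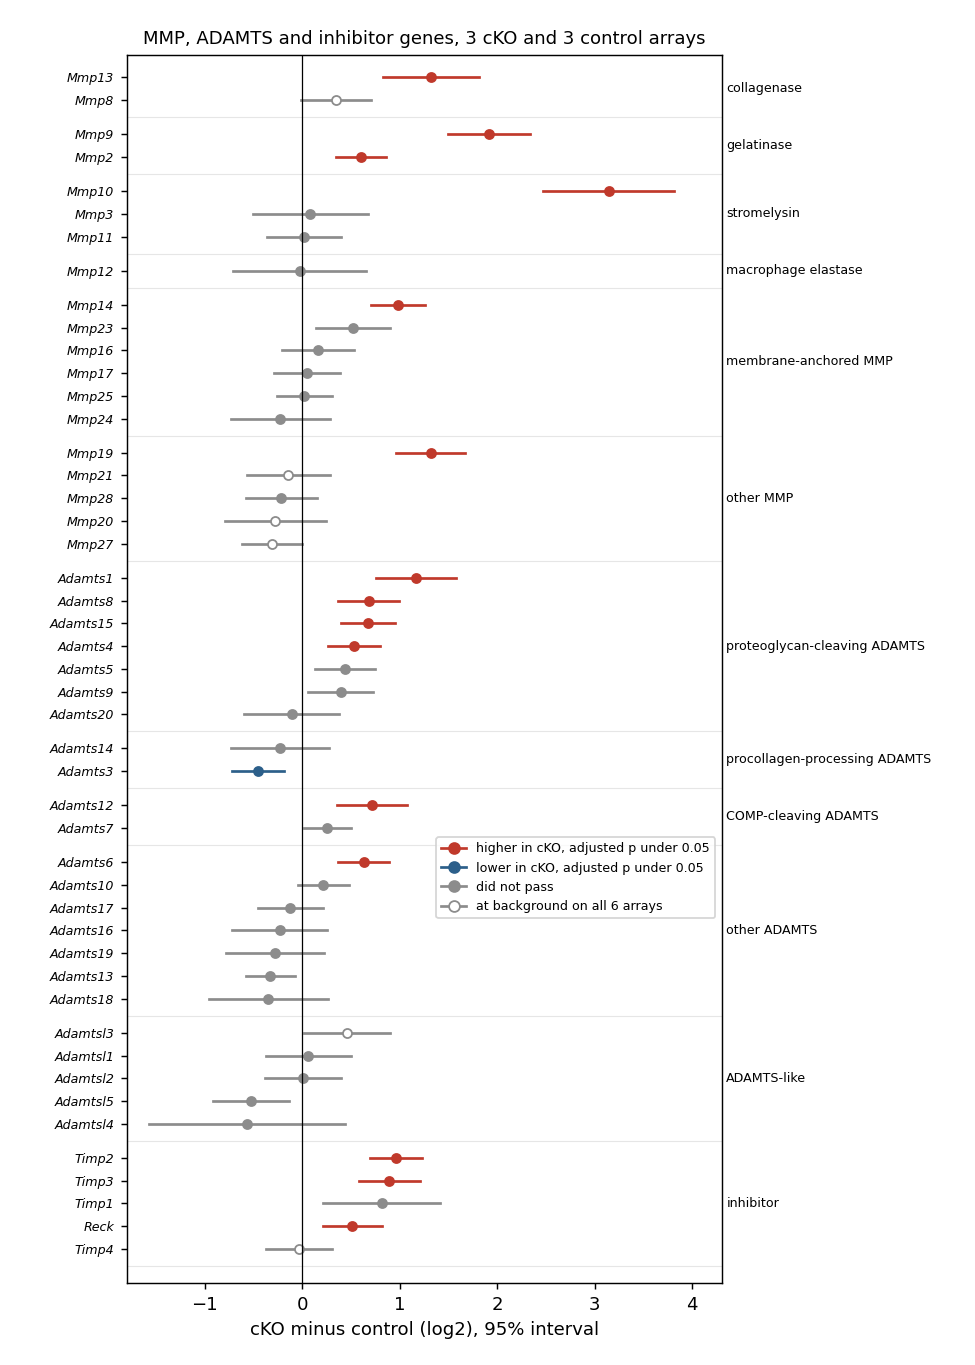
Difference between cKO and control (x axis, log2) for each of the 47 genes, by enzyme class (y axis), with 95% intervals from limma. The 15 genes that rose span every enzyme class except the macrophage elastase, the procollagen-processing enzymes and the ADAMTS-like proteins, and Mmp10 lies farthest out at 3.14.

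Of the 47 genes, 6 lay at or below the background level on all 6 arrays: Mmp8, Mmp20, Mmp21, Mmp27, Adamtsl3 and Timp4. Their values ran from 4.60 to 6.15 and their differences from -0.31 to 0.46, and 0 of the 6 were called in the limma fit (Mmp27 and Adamtsl3 had unadjusted p of 0.0458 and 0.0442, array weights called both, and 3 rescalings of the arrays called Adamtsl3). In 6 others the 3 controls lay at background and at least 1 cKO array did not: Mmp10, Mmp19, Mmp25, Adamts5, Adamts6 and Adamts15. A further 7 dipped to it on some arrays (Mmp3, Mmp13, Mmp16, Adamts18, Adamts20, Adamtsl2 and Timp1), and 28 were above it on every array.

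Among the stromelysins, Mmp10 (stromelysin-2, which degrades proteoglycans, laminin and fibronectin and activates other MMPs) read 8.05, 9.23 and 8.96 in cKO 1, 2 and 3, against 5.46, 5.67 and 5.68 in controls 1, 2 and 3. The lowest cKO array lay 2.37 above the highest control. The measured difference was 3.14 (SE 0.29, adjusted p = 0.0011), but with the controls at background only a bound holds, at least 5.55-fold higher in cKO. Mmp3 (stromelysin-1), its close relative, read 6.51, 5.75 and 6.76 in cKO against 6.23, 6.42 and 6.12 in controls, so the groups overlapped near the background level (0.08, 95% interval -0.51 to 0.68, adjusted p = 0.85). Without cKO 2 the difference of Mmp3 was 0.38 (limma, adjusted p = 0.14). Mmp11 (stromelysin-3, a stromal enzyme) read 7.90, 7.37 and 7.83 in cKO against 7.58, 7.70 and 7.77 in controls (0.02, 95% interval -0.36 to 0.40, adjusted p = 0.96).

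Both gelatinases, which digest denatured collagen and basement membrane collagen, rose. Mmp9 (gelatinase B, stored in neutrophils and induced in many inflamed tissues) read 9.10, 9.55 and 9.51 in cKO 1, 2 and 3, against 7.62, 7.61 and 7.19 in controls. The difference was 1.91 (SE 0.18, adjusted p = 0.0012), 3.77-fold higher in cKO, and all arrays were above background. Mmp2 (gelatinase A, a product of fibroblasts) read 10.51, 10.34 and 10.47 in cKO against 9.89, 9.85 and 9.77 in controls, a difference of 0.60 (SE 0.11, adjusted p = 0.012). Its call was lost without cKO 3 (adjusted p = 0.0518), control 2 (0.061) or control 3 (0.0503).

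Mmp14 (membrane type 1 MMP, which cleaves collagen around cells and activates proMMP2 in a complex with Timp2) was the 1 of 6 membrane-anchored MMPs that rose. It read 10.26, 10.15 and 10.39 in cKO, against 9.38, 9.28 and 9.20 in controls, a difference of 0.98 (SE 0.12, adjusted p = 0.0027). Thus Mmp2, Mmp14 and Timp2, the 3 parts of that activation complex, were each higher in all 3 cKO arrays than in any control. Mmp23 read 7.18, 6.97 and 7.43 in cKO against 6.73, 6.83 and 6.45 in controls and did not pass (0.52, adjusted p = 0.077), although it was called without cKO 2 (adjusted p = 0.0446), with 3 rescalings of the arrays (0.0315 to 0.0381), without the dimmest 25% of genes (0.0477) and with array weights (0.00902). Mmp16, Mmp17, Mmp24 and Mmp25 differed by -0.22 to 0.16 (95% intervals within -0.73 to 0.53), with groups that overlapped.

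Of the collagenases, Mmp13 (collagenase-3, the main interstitial collagenase of rodents) read 7.20, 7.71 and 7.82 in cKO, against 5.93, 6.43 and 6.42 in controls, of which control 1 lay at background. The difference was 1.32 (SE 0.21, adjusted p = 0.0072). Mmp8, the neutrophil collagenase, stayed at background at 5.02, 5.33 and 5.09 in cKO against 4.60, 5.04 and 4.76 in controls. Mmp19, a broadly expressed MMP of epithelium and stroma, read 7.07, 7.01 and 6.67 in cKO against 5.78, 5.51 and 5.50 in controls, all 3 controls at background. Its measured difference was 1.32 (SE 0.15, adjusted p = 0.0023), which as a bound is at least 1.56-fold higher in cKO.

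Mmp12 (macrophage elastase) read 6.90, 5.88 and 7.06 in cKO against 6.57, 6.64 and 6.71 in controls. Its cKO arrays lay on both sides of the controls (-0.03, 95% interval -0.71 to 0.66, adjusted p = 0.96), with cKO 2 lowest. Without cKO 2 the difference was 0.34 (limma, adjusted p = 0.11). Mmp28 (epilysin, an epithelial MMP) read 8.19, 7.67 and 8.05 in cKO against 8.08, 8.25 and 8.22 in controls (-0.21, 95% interval -0.58 to 0.15, adjusted p = 0.41).

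**Figure D2:**
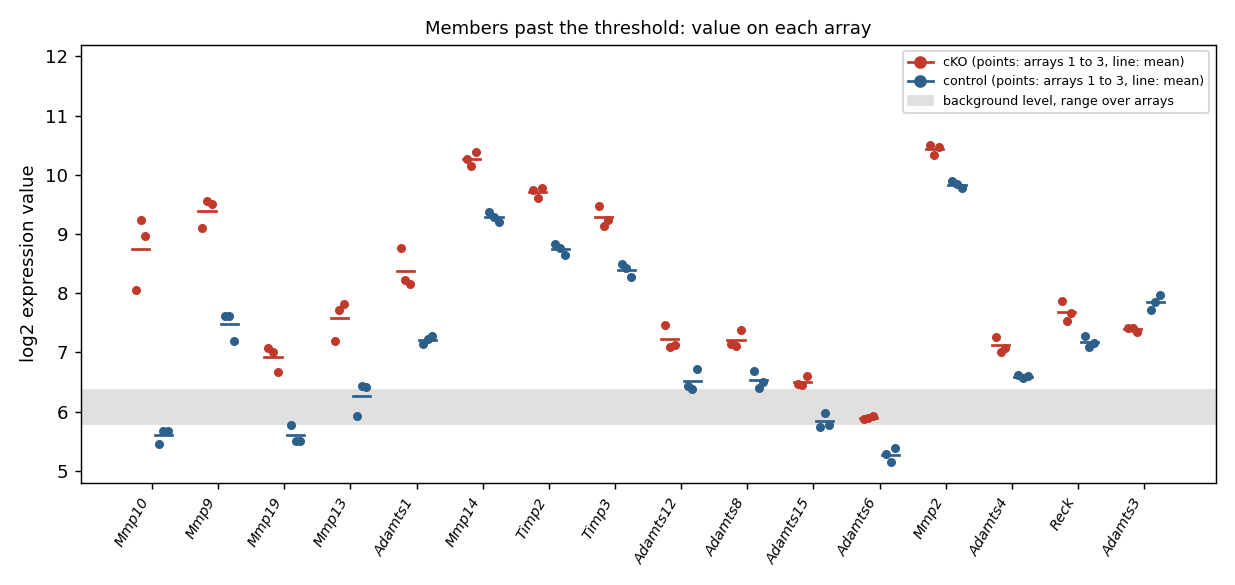
Log2 expression value (y axis) of the 16 genes past the threshold (x axis, from the largest to the most negative difference) on each cKO array (red) and control array (blue). The grey band is the background level over the arrays, from 5.79 to 6.36. Controls of Mmp10, Mmp19 and Adamts6 lie below the band, and Adamts3 is the 1 gene whose cKO points lie below its control points.

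Several of these MMP genes stand side by side on mouse chromosome 9, in the order Mmp13, Mmp12, Mmp1b, Mmp3, Mmp1a, Mmp10, Mmp8, Mmp27, Mmp20 and Mmp7, with no other protein-coding gene between them in the RefSeq annotation. Mmp13 and Mmp10 rose, with the uncalled genes Mmp12 and Mmp3 between them. Mmp1a and Mmp1b, outside the 47 because their symbols end in a letter, were at background on all 6 arrays (Mmp1a 4.14 to 4.88 in cKO against 4.45 to 4.92 in controls). Mmp7 (matrilysin, a Paneth cell product also left out of the 47) read 7.86, 8.47 and 8.17 in cKO against 6.48, 6.16 and 6.04 in controls, of which controls 2 and 3 lay at background. The measured difference was 1.94 (SE 0.19, adjusted p = 0.0014). So 3 of the 10 genes of the cluster rose, at both ends and in the middle.

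**Figure D3:**
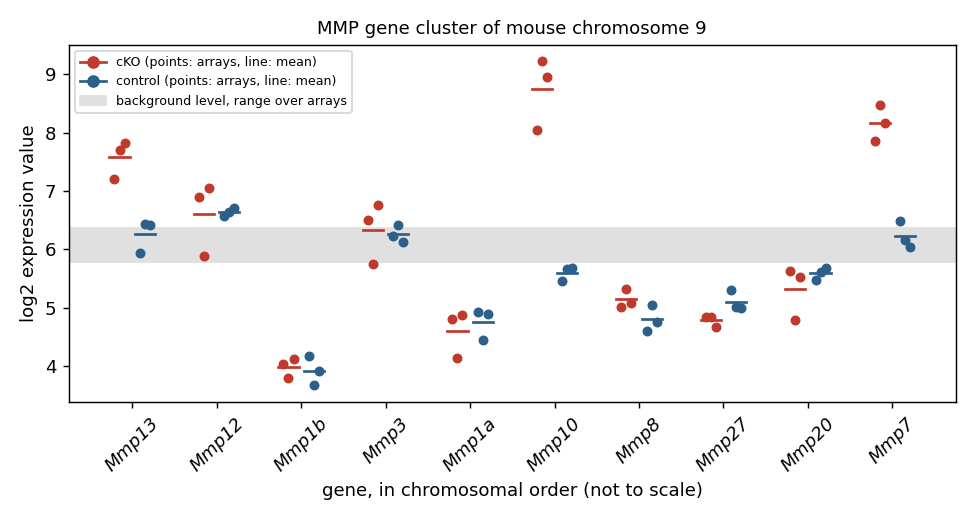
Log2 expression value (y axis) of the 10 MMP genes of the chromosome 9 cluster in chromosomal order (x axis, not to scale), with 3 cKO arrays (red) left of 3 control arrays (blue) and lines at the means. Mmp13, Mmp10 and Mmp7 are separated, while the other 7 genes overlap or lie under the grey background band.

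Inducible MMP genes are textbook targets of the transcription factor AP-1, a dimer of Fos and Jun proteins, through a site shortly before the start of transcription. The 250 bases before the RefSeq start (GRCm38.p6) are shown for 2 genes of the cluster that rose, Mmp13 and Mmp10, for 2 between them that were not called, Mmp12 and Mmp3, and for Mmp14, which rose and lies elsewhere. Capitals mark the AP-1 letters TGANTCA, which read the same on both strands, and the TATA letters TATAAA on the gene's own strand. Each is written 5′ to 3′.
Mmp13, plus strand, chr9:7272264-7272513: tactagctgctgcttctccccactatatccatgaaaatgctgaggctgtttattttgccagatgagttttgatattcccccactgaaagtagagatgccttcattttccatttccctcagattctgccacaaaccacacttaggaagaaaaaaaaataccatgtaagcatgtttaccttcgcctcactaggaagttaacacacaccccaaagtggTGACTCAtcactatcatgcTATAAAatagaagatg
Mmp12, plus strand, the start of 2 listed that has the AP-1 letters, chr9:7347124-7347373: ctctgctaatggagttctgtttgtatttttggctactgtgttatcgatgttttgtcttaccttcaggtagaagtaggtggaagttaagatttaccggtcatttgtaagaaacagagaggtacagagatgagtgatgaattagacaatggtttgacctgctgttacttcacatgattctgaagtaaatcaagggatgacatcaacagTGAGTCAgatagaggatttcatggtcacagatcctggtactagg
Mmp3, plus strand, chr9:7445572-7445821: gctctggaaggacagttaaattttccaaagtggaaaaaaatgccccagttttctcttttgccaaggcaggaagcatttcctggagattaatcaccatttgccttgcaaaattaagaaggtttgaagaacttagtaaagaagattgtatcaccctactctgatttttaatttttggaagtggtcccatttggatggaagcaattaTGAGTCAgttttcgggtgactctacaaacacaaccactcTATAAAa
Mmp10, plus strand, chr9:7502092-7502341: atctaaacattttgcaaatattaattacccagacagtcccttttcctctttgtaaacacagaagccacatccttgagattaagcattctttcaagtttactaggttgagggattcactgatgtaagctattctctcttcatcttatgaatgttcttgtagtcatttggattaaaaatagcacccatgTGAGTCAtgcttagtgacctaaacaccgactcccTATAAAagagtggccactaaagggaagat
Mmp14, plus strand, chr14:54431348-54431597: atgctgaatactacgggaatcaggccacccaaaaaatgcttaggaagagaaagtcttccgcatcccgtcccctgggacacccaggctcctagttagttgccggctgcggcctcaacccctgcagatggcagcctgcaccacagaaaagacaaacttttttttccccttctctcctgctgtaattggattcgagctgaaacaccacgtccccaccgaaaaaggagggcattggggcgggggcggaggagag

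The AP-1 letters began 35 bases before the start in Mmp13, 63 in Mmp10, 46 in Mmp3 and 44 in Mmp12. They occur in 6.75% of all 32851 RefSeq windows of this length. RefSeq windows were matched for 32 of the 47 genes, 9 of the called genes among them. The genes without a window, which include Mmp9, Mmp2 and Mmp19, were not searched. A gene was counted if any of its windows matched, while the shares are of windows. The AP-1 letters were found for 5 genes: Mmp13, Mmp10, Mmp3, Mmp12 and Mmp20 (at background). Of those 5, 2 rose and 3 were not called. Both motifs occurred in Mmp13, Mmp10, Mmp3 and Mmp20, and in 0.791% of all windows. The ETS letters AGGAAG, searched on both strands, were in 11 of the 32 (29.5% of all windows). A match is a description of these letters only.

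Of the 18 ADAMTS proteases, 6 rose and 1 fell. Adamts1, which cleaves aggrecan and versican, changed most. It read 8.76, 8.22 and 8.16 in cKO, against 7.15, 7.22 and 7.27 in controls, a difference of 1.17 (SE 0.17, adjusted p = 0.0057), 2.25-fold higher in cKO. Among the 7 genes of proteoglycan-cleaving enzymes 3 others rose. Adamts8 read 7.15, 7.10 and 7.38 in cKO against 6.69, 6.40 and 6.50 in controls (0.68, SE 0.13, adjusted p = 0.016). Adamts15 read 6.47, 6.45 and 6.60 in cKO against 5.74, 5.98 and 5.78 in controls, which were at background (0.67, SE 0.12, adjusted p = 0.011, as a bound at least 1.17-fold higher). Adamts4, an aggrecanase induced by cytokines, read 7.26, 7.01 and 7.08 in cKO against 6.61, 6.56 and 6.60 in controls (0.53, SE 0.11, adjusted p = 0.023). In each of the 4 the groups did not overlap.

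The calls of Adamts8 and Adamts4 depended on single arrays. Adamts8 was not called without cKO 3 (adjusted p = 0.0606), control 2 (0.0807) or control 3 (0.0652). Adamts4 was not called without cKO 1 (0.0504), cKO 3 (0.0704), control 1 (0.0664), control 2 (0.104) or control 3 (0.0755), nor when all rows were tested (0.058).

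Adamts5, the other main aggrecanase, read 6.36, 5.99 and 6.05 in cKO against 5.75, 5.65 and 5.69 in controls at background, and did not pass (0.44, adjusted p = 0.070). It was called with 3 rescalings of the arrays (adjusted p = 0.018 to 0.030), without the dimmest 25% of genes (0.0417) and with array weights (0.0162). Adamts9, which cleaves versican, read 9.29, 8.97 and 9.16 in cKO against 8.64, 8.96 and 8.64 in controls (0.39, adjusted p = 0.12), and all 6 of its rows were higher in cKO, by 0.04 to 0.76, with 0 called (limma on all rows, adjusted p from 0.0751). Adamts20 differed by -0.11 near background.

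Adamts12, a protease that cleaves cartilage oligomeric matrix protein (Comp), read 7.47, 7.09 and 7.13 in cKO against 6.44, 6.38 and 6.72 in controls (0.72, SE 0.15, adjusted p = 0.022). Without cKO 3, control 1 or control 2 it was not called (adjusted p = 0.0551, 0.0731 and 0.0992), nor when all rows were tested (0.0633). Adamts7, which cleaves the same protein, differed by 0.26 with groups just apart (adjusted p = 0.15), and was called with array weights (0.0321). Adamts6 read 5.87, 5.90 and 5.93 in cKO against 5.28, 5.15 and 5.38 in controls (0.63, SE 0.11, adjusted p = 0.011). On 5 of its 6 arrays it lay at background, so no fold can be given, and without control 2 it was not called (adjusted p = 0.0636).

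The gene that fell was Adamts3, which trims the amino end of procollagens. It read 7.41, 7.42 and 7.35 in cKO, against 7.71, 7.86 and 7.97 in controls, a difference of -0.45 (SE 0.11, adjusted p = 0.039). This rests on the brightest of 16 rows for the gene. Of the 16 rows, 8 were lower and 8 higher in cKO, with a median of 0.01 and 0 called when all rows were tested (limma, lowest adjusted p = 0.0873). The call was also lost with median centring (adjusted p = 0.148) and without any 1 of cKO 1, 2 or 3 (0.070, 0.0539 and 0.126) or control 1, 2 or 3 (0.0555, 0.147 and 0.132).

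Adamts14, which also processes procollagen, differed by -0.23, and Adamts16, Adamts17, Adamts18 and Adamts19 by -0.35 to -0.12 (95% intervals within -0.96 to 0.27), all with groups that overlapped. Adamts13, the protease of von Willebrand factor, read 6.69, 6.60 and 6.70 in cKO against 7.09, 6.92 and 6.96 in controls. Its groups lay apart (-0.33, adjusted p = 0.093), and it was called with array weights (0.0466). Adamts10, which acts on fibrillin microfibrils, differed by 0.22 (adjusted p = 0.25). Among the ADAMTS-like genes 0 of 5 were called by limma, though Adamtsl3 and Adamtsl5 had unadjusted p of 0.0442 and 0.0154. Adamtsl3, at background on all arrays, was called with 3 rescalings of the arrays (adjusted p = 0.0271 to 0.0471) and with array weights (0.0155). Adamtsl5 read 7.83, 7.39 and 7.72 in cKO against 8.04, 8.05 and 8.42 in controls (-0.52, adjusted p = 0.082), and was called with array weights (0.0378) and without the dimmer 50% of genes (0.0356). Adamtsl4, a fibrillin-binding protein, read 8.32 and 8.19 in cKO 1 and 3 but 6.56 in cKO 2, against 8.20, 8.28 and 8.30 in controls. Its difference of -0.57 (95% interval -1.58 to 0.44) was -0.005 without cKO 2. Adamtsl1 and Adamtsl2 differed by 0.06 and 0.01, with groups that overlapped.

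Of the 5 inhibitor genes, 3 rose. Timp2, which inhibits MMPs and also bridges Mmp14 to proMMP2, read 9.75, 9.61 and 9.78 in cKO, against 8.83, 8.77 and 8.65 in controls, a difference of 0.96 (SE 0.11, adjusted p = 0.0025). Timp3, the TIMP that binds matrix and blocks ADAM and ADAMTS enzymes as well, read 9.48, 9.14 and 9.24 in cKO, against 8.49, 8.42 and 8.27 in controls, a difference of 0.89 (SE 0.13, adjusted p = 0.0057). For both, the groups stood at least 0.65 apart. Reck read 7.87, 7.53 and 7.66 in cKO against 7.27, 7.09 and 7.16 in controls (0.51, SE 0.13, adjusted p = 0.038). Reck was not called without cKO 1 or 3 (adjusted p = 0.0781 and 0.102), without control 1, 2 or 3 (0.0728, 0.154 and 0.120) or when all rows were tested (0.0899).

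Timp1, the cytokine-inducible TIMP, read 6.41, 7.26 and 7.13 in cKO 1, 2 and 3, against 6.22, 6.38 and 5.76 in controls. The cKO 1 value lay 0.03 above the highest control, and the difference of 0.81 (95% interval 0.21 to 1.42) did not pass (adjusted p = 0.081). Without cKO 1 it was 1.08 and passed (adjusted p = 0.022), and with array weights it was 0.78 and passed (0.0188).

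The genes that rose did not share one order over the cKO arrays. Mmp10, Mmp9, Mmp13 and Adamts6 (5.87, 5.90 and 5.93, near background) were lowest on cKO 1, the array with the highest Cdh1. Among the genes not called, Mmp8 (at background), Adamts7 and Timp1 were lowest there too, while 16 were highest there. In contrast Mmp2, Mmp19, Adamts1, Adamts4, Adamts12, Timp3 and Reck were highest on cKO 1. The part of the Cdh1 level in these orders was not tested. Of the 31 genes not called, 26 were lowest of the cKO arrays on cKO 2, the array on which receptor genes also lay low. So were 9 of the 15 genes that rose, and 35 of all 47. Without cKO 2, 16 members were called, of which 15 were among those called with all arrays (Mmp23 was added and Adamts3 lost), and 12.5% of all genes were called.

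**Figure D4:**
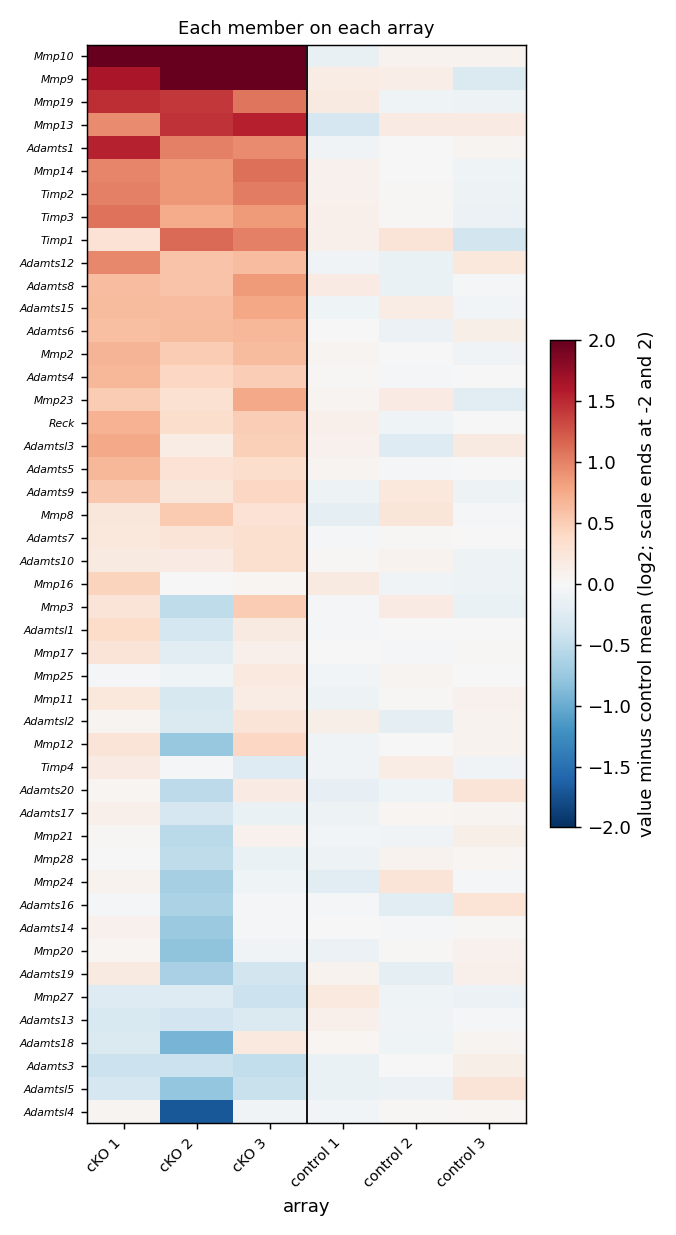
Each of the 47 genes (rows, from the largest to the most negative difference) on each array (columns, cKO left of control), as its value minus the control mean in log2. Colours end at -2 and 2, so Mmp10 on all 3 cKO arrays and Mmp9 on cKO 2 and 3 lie past the scale. The upper rows are red on all 3 cKO arrays, and many of the lower rows are blue mainly on cKO 2. Adamtsl5, Adamts3, Adamts13, Adamts16 and Mmp27 lie below their control mean on all 3 cKO arrays.

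Other genes of matrix breakdown were counted from lists, chosen with earlier results of these data known. Over all genes 6.81% were called higher and 7.36% lower. With 1 array left out, the share called in either direction was 13.6% without cKO 1, 12.5% without cKO 2 and 7.61% without cKO 3. It was 10.1% without control 1, 6.15% without control 2 and 7.55% without control 3. Of 25 measured activators, partners and other inhibitors of these enzymes, 12 rose and 1 fell, with a median of 0.54. They were led by genes of plasmin generation, which activates proMMPs: Plat (tissue plasminogen activator) at 2.14 and Plau (urokinase) at 1.61, and by Cd44, which docks MMPs at the cell surface, at 1.88, each with adjusted p of 0.0008 or less. Plaur, the urokinase receptor, differed by 2.97 (adjusted p = 0.0011), with controls at background, as were controls 2 and 3 of Plat. Plg, the plasminogen gene itself, was at background on all 6 arrays. The gene of the list that fell was Pcsk5, by a difference of -1.39 (limma, adjusted p = 0.0037). Without cKO 3, control 2 or control 3, 8 of the list were higher in each case.

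Of 26 measured matrix substrates, 18 rose and 0 fell (6.81% and 7.36% of all genes), with a median of 0.77. Bgn (biglycan) rose by 1.33, Fn1 (fibronectin) by 1.26, Nid1 (nidogen, of basement membrane) by 1.22 and Eln (elastin) by 1.81, each with adjusted p of 0.0021 or less. Vcan (versican), a substrate of Adamts1, Adamts4 and Adamts9 and chosen after its values were seen, rose by 1.31 (adjusted p = 0.0061), while Acan (aggrecan) was at background on all arrays. The count of 18 was 10 without control 2 or control 3 and 11 without cKO 3.

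Of 24 measured signals and factors that induce MMP genes, 9 rose and 0 fell (6.81% and 7.36% of all genes), with a median of 0.18. Ptgs2 (cyclooxygenase-2) differed by 1.53, Ereg (epiregulin) by 2.04 and Il1b (interleukin-1 beta) by 1.65, all with controls at background, and Hbegf by 1.02, each with adjusted p of 0.0020 or less. Of the 7 Fos and Jun family genes, whose products form AP-1, 1 rose. This was Fos (chosen after its values were seen), with 8.35, 8.21 and 8.41 in cKO against 6.94, 7.08 and 7.83 in controls (1.04, adjusted p = 0.025). Its call was lost without cKO 1 or 3 (adjusted p = 0.0581 and 0.0801) or control 1 or 2 (0.0714 and 0.101). The 6 others differed by -0.07 to 0.21. The list's count was 5 without cKO 3 or control 1 and 4 without control 2.

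Of the 16 related proteases outside the 47, 4 rose and 1 fell (6.81% and 7.36% of all genes). Besides Mmp7 they include Adam19 at 1.18 (adjusted p = 0.0034) and Bmp1, a procollagen C-proteinase, at 0.60 (adjusted p = 0.0089, and 0.0574 without control 2). The list's count of 4 was 2 without control 2. Mep1a, a meprin of the enterocyte brush border, fell by 2.47 (adjusted p = 0.0023).

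The samples were whole intestine, where a change in the number of cells of a type and in RNA per cell cannot be told apart. Several cell types that make these enzymes had markers that moved with them. Over all genes 6.81% were called higher and 7.36% lower. All 6 smooth muscle markers rose, and their summed level (log2 of the sum) was 14.58 to 14.69 in cKO against 13.72 to 13.99 in controls. Of 8 fibroblast markers 7 rose, 5 of which (Col1a1, Col1a2, Col3a1, Dcn and Lum) are also on the substrate list, with summed levels of 13.68 to 13.95 in cKO against 13.06 to 13.29 in controls. Of 9 macrophage markers 6 rose, with summed levels of 11.29 to 11.75 in cKO against 10.45 to 10.54 in controls. Mmp12 was not called, with a difference of -0.03 over all arrays and 0.34 without cKO 2 (limma, adjusted p = 0.11). The fibroblast count was 2 without control 2 or control 3, 3 without cKO 1 or cKO 3 and 4 without control 1. The smooth muscle and macrophage counts were 4 to 6 with any 1 array left out.

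Of 10 neutrophil markers 3 rose (Ly6g, Cxcr2 and S100a8), where 6.81% of all genes did, and 0 did so with any 1 control left out. The summed level was 9.31 to 10.41 in cKO against 8.96 to 9.05 in controls. Ly6g read 6.52, 9.27 and 6.54 in cKO 1, 2 and 3, and Mmp9 read 9.10, 9.55 and 9.51. A link between Mmp9 and these markers was not tested. Of the granule genes, Mpo, Camp and Ngp were at background on all arrays, as was Mmp8, while Elane was above it on all arrays (6.33 to 6.53 in cKO against 6.66 to 7.08 in controls, adjusted p = 0.11). Ltf and S100a9 were above background on cKO 2 alone, at 6.42 and 6.59. So were 2 of the 3 markers that rose, Cxcr2 at 7.32 and S100a8 at 6.46. Ly6g was above background on all 3 cKO arrays, with its controls at background. Of 6 mast cell markers 0 were called (limma), none with unadjusted p under 0.05 except Kit, and 4 were at background, with summed levels of 8.75 to 8.85 in cKO against 8.51 to 8.76 in controls. None of 7 endothelial markers was called (limma, lowest adjusted p = 0.087), with summed levels of 11.16 to 11.28 in cKO against 10.98 to 11.07 in controls. Of 9 epithelial markers 4 rose and 1 fell, with a median of -0.10. The 4 are the keratins Krt8, Krt18, Krt19 and Krt20, which differed by 0.77 to 1.61, and the summed level of the list, 14.60 to 14.73 in cKO against 14.20 to 14.41 in controls, includes them. The other 5 differed by -0.79 (Cdx2, which fell) to -0.10 (Epcam). Of 5 mesothelial markers 3 rose (Krt19, Msln and Lrrn4), with summed levels of 12.61 to 12.84 in cKO against 11.94 to 12.06 in controls. Krt19 is also on the epithelial list and has the highest values of the 5, and Wt1 and Upk3b differed by 0.16 and -0.03. Their part in the changes of the 47 genes was not tested.

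**Figure D5:**
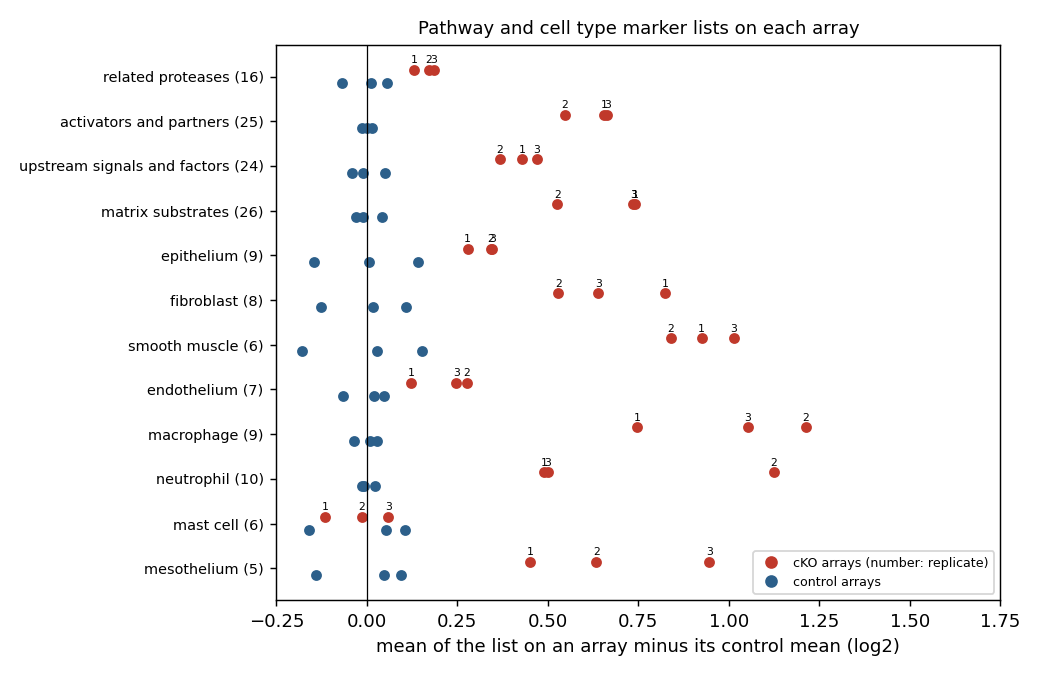
Mean of each list on an array minus its control mean (x axis, log2) for cKO arrays (red, numbered by replicate) and control arrays (blue), with the number of measured genes in parentheses (y axis). Every list drawn other than the mast cell markers lies to the right of its controls on all 3 cKO arrays, and cKO 2 stands apart in the neutrophil list at 1.12.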

How the data were processed

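RNA of whole small intestine from 3 E-cadherin cKO and 3 control samples at E18.5 was measured on Affymetrix Mouse Gene 1.0 arrays. The authors processed the arrays with dChip, per the series design text, and deposited 1 value per row and array, read here as log2 expression from its range. The sources used here give no dChip version, background correction, normalization or expression model. Values were used as deposited. There is no read depth behind array values, so precision rests on the 3 arrays of each group.

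Of 35512 rows, 21789 had 1 gene symbol in the platform annotation, 1621 had several and 12102 none listed. Symbols were updated through gene identifiers in the RefSeq table (GRCm38.p6), and the brightest row was kept for each of 19938 genes. Each gene was tested with limma 3.58.1 in R 4.3.3 (lmFit and eBayes, two-sided, no covariate, Benjamini-Hochberg over all genes, threshold 0.05). A bound for a group at background sets the other group's mean against, per array, the higher of the background level and the measured value. On simulated arrays with 19938 genes, the fit recovered 2% of genes shifted by 0.5 on the log2 scale, 38% of those shifted by 1 and 96% of those shifted by 2. In the simulation only 50 genes were shifted by each amount, against 2825 genes called in the real comparison. That makes the adjusted threshold stricter in the simulation, so these rates do not measure recovery in the real comparison.

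The members, gene lists, background measure and tests were chosen with earlier results of these data known. All members are accounted for. Members past the threshold are given with every array, and from each list up to 4 genes with the smallest p, besides some others that are named. Roles of the enzymes and the motifs were set after the values had been seen. Some listed genes are not reported here, and counts are over the measured genes of each list. Of 2 measured erythroid markers 0 were called (limma, adjusted p = 0.40 and 0.93). Replicate numbers are shared by the groups, but deviations of equally numbered arrays correlated at -0.08, 0.13 and 0.14 over genes, so they were not taken as pairs. Alternatives were 3 rescalings, 2 filters on dim genes, array weights, the replicate number as a block, all rows tested and each array left out.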

Additional observations from a re-analysis of the deposited data

How the results depend on the processing

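Of the 16 members called, 9 were called under every alternative in which they were tested: Mmp9, Mmp10, Mmp19, Mmp13, Mmp14, Timp2, Timp3, Adamts1 and Adamts15. The 7 others were lost in at least 1, and no called member changed sign. The count of 16 was 19 with quantile normalization or cyclic loess, 18 with median centring, 24 with array weights, 12 with all rows tested and 9 to 16 with 1 array left out. The share of all genes called was 16.3% with quantile normalization, 15.7% with cyclic loess and 12.9% with median centring. It was 29.3% with array weights, 7.76% with all rows tested and 6.15% to 13.6% with 1 array left out. Without the dimmer 50% of genes, which kept 16 of the 47, the count was 10 and the members' median 0.45. Of all genes kept by that filter, 33.2% were called. With the replicate number as a block, a pairing that the labels do not state, the count was 13, and 11.1% of all genes were called. Adamts3, Adamts4 and Reck were lost (limma, adjusted p = 0.0971, 0.0578 and 0.0601). Over all genes the count was 2825, against 5834 with array weights, 1548 with all rows tested and 1226 to 2713 with 1 array left out (1517 without cKO 3, 1226 without control 2, 1505 without control 3). The members' median of 0.16 was 0.05 to 0.26 with 1 array left out (0.05 without cKO 1, 0.26 without cKO 2) and 0.26 with each rescaling. With the 99th percentile as background, 16 members lay at or below it on all arrays. The cause of these shifts was not tested, except that the filter tests fewer genes and leaving out an array fewer samples. Signal near background limits what can be said of Mmp3, Adamts6 and the 6 genes at background. It also limits Mmp10, Mmp19, Mmp25, Adamts5 and Adamts15, whose controls all lay at background, and the genes that dipped to it on some arrays. As bounds, Mmp19 was at least 1.56-fold and Adamts15 at least 1.17-fold higher in cKO.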
